A study of Mus musculus with 4 samples.

Results

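The genes described here are 10 members of the retinoic acid pathway and meiotic entry, taken as the rows of the deposited mouse tables whose gene name is *Stra8*, *Rara*, *Rarb*, *Rarg*, *Rxra*, *Rxrb*, *Aldh1a1*, *Aldh1a2*, *Cyp26b1* or *Crabp1*. All 10 were found among 24411 rows. Of these, 9 had a mean of at least 1 TPM (a length-corrected transcript abundance with an equal total in each library) and were tested with 14512 genes in all, and *Rarb* did not reach that mean.

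Retinoic acid is made from vitamin A by retinal dehydrogenases such as ALDH1A1 and ALDH1A2, is bound in the cytoplasm by CRABP1, and is broken down by the cytochrome P450 enzyme CYP26B1. It binds nuclear receptors of the RAR family, which pair with receptors of the RXR family on DNA and switch target genes on when the ligand is present. In the testis this signal induces *Stra8*, whose protein works with MEIOSIN to activate the meiotic genes of germ cells that leave mitosis.

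RAR and RXR pairs bind repeats of a 6-base core, and the promoters of the members were searched for this core on both strands. The letters searched were AGGTCA (found in 16.3% of all promoters), AGTTCA (found in 14%), GGGTCA (found in 13.7%) and GGTTCA (found in 10.4%), no one of which can also be another. RefSeq promoters of the GRCm38.p6 assembly were used, each from 250 bases before a transcript start to 50 after it. All 10 members matched, with 17 promoters among 32851. At least 1 core lay in 7 of the 17, from *Rxra*, *Stra8*, *Rara*, *Rarb*, *Rarg* and *Aldh1a1*, and in 43.7% of all promoters. A direct repeat of cores with a gap of 5 bases was found for *Rarb* among the members and in 0.0974% of all promoters. Direct repeats with a gap of 1 base (0.222% of promoters) or 2 bases (0.268%) were found in no promoter of a member.

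The *Stra8* and *Rarb* windows are shown because *Stra8* is the target gene of the pathway in germ cells and the *Rarb* repeat is the textbook retinoic acid response element. Each is written 5′ to 3′ on the strand of its gene, with the core letters in capitals. Counted from the RefSeq transcript start, the printed cores begin at -194 and -38 in *Stra8* and at -53 and -42 in *Rarb*. A further *Rarb* core, GGGTCA at -83 on the strand of the gene, lies outside the printed window.
*Stra8*, chr6:34920742-34920771, plus strand: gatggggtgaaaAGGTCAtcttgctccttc
*Stra8*, chr6:34920898-34920927, plus strand: gcctggggtaccAGGTCAgttttttacctg
*Rarb*, chr14:16575506-16575535, minus strand: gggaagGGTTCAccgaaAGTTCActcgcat
The *Stra8* cores stand alone at these letters, whereas the *Rarb* pair forms the repeat with a gap of 5. Other forms of the core were not searched, so a repeat with a less exact core would have been missed. A match describes the sequence only, and binding at these places was not measured in the data used here.

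RNA was measured in GFP-positive cells sorted from testes at postnatal day 18, from 2 *Zfp541*+/- control samples and 2 samples labelled *Zfp541* KO, the latter with a deletion allele made by CRISPR/Cas9. All 4 carried *Rec8*-3FH-GFP KI, an allele that makes tagged REC8, a meiotic cohesin, together with GFP, and the labels give a mixed C57BL/6 and CBA strain. By the series' design text 1 control was heterozygous and 1 homozygous for the KI, and both samples labelled *Zfp541* KO were homozygous, without saying which control is which, so KI dose and genotype cannot be fully told apart. The study names C57BL/6 mice and in 1 place a *Stra8* in place of a *Rec8* KI, and the labels were followed here. The samples came from single testes, and nothing says that the pair labelled *Zfp541* KO came from separate mice, so p-values measure only the spread between these samples. Values are described on the TPM scale, and differences are of log2(TPM + 1), labelled *Zfp541* KO minus control, which understates the change of low genes. They were tested with limma (two-sided, Benjamini-Hochberg adjustment over all genes tested), and an exact permutation of 4 samples could not go below p = 0.33.

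*Zfp541* itself, the deleted gene, had 112 TPM (control 1), 72.2 TPM (control 2), 136 TPM (*Zfp541* KO 1) and 151 TPM (*Zfp541* KO 2). Its level thus went against the label, and every direction below rests on the labels alone (KO-labelled in what follows). The study reports that ZFP541 protein was absent from KO testes. TPM per gene does not tell which exons the reads came from. *Rec8*, whose locus drives the GFP, was at 7.05 and 27.9 TPM in the control libraries and at 27.7 and 19.4 TPM in the KO-labelled libraries. The controls stood apart from each other: 10 macrophage markers summed to 3182 TPM in control 1 and 38.2 TPM in control 2, and 9 Leydig cell markers (*Aldh1a1* left out) to 3805 and 85.6 TPM. In KO-labelled libraries 1 and 2 the macrophage sums were 2736 and 2010 TPM and the Leydig sums 455 and 689 TPM. Each member is therefore given with and without each control.

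No member changed past an FDR of 0.05 between the KO-labelled libraries and the controls by limma, and 0% of all genes tested did so in either direction. No member had an unadjusted p under 0.05, whereas 10.7% of all genes had one and were higher in the KO-labelled libraries and 3.73% had one and were lower. Of the 9 members tested, 6 had a log2 fold change above 0 and 3 below it, beside 68.96% of all genes above 0. After median-ratio scaling 4 members were above 0 and 5 below, beside 49.7% of all genes above 0, and after quantile normalization 4 and 5, beside 56.8%. The controls were further apart than the KO-labelled libraries for 9 of 9, and for 85.1% of all genes. In 6 members (*Aldh1a1*, *Aldh1a2*, *Crabp1*, *Cyp26b1*, *Rara* and *Rxrb*) both KO-labelled values lay between the controls, as for 30.9% of all genes.

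**Figure D1:**
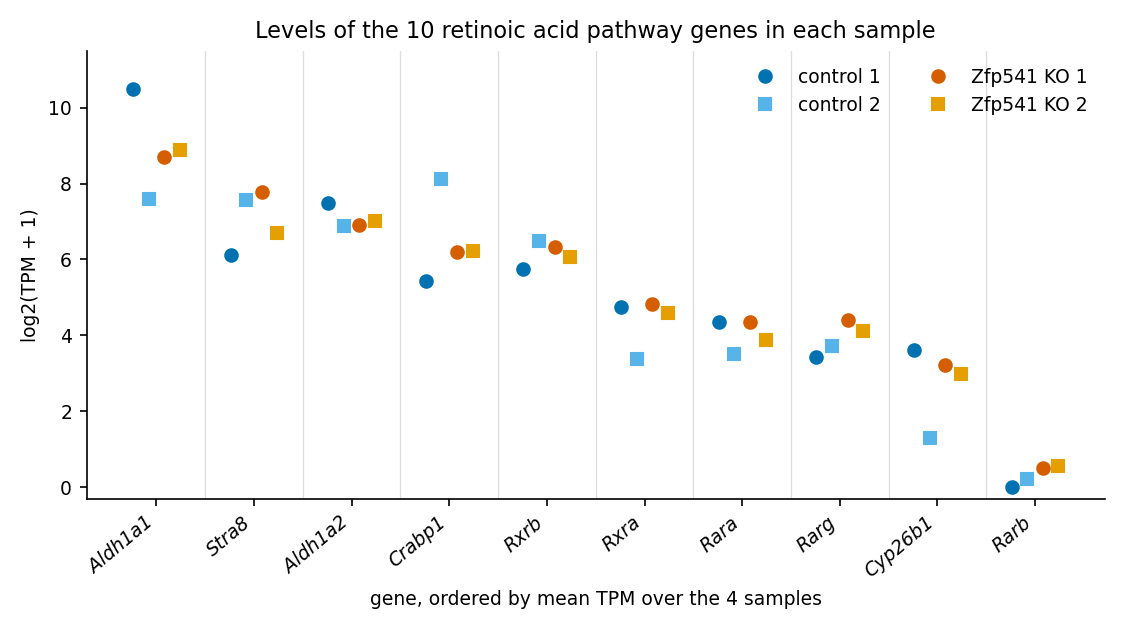
Level of each of the 10 genes in each sample, as log2(TPM + 1) on the vertical axis, with genes ordered by mean TPM on the horizontal axis. Circles and squares mark replicates 1 and 2 of the controls (blue) and of the KO-labelled libraries (orange). For *Aldh1a1*, *Crabp1* and *Cyp26b1* the orange points lie close together between blue points that are far apart.

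*Aldh1a1* (chr19:20492715-20643465, plus strand, GRCm38, as are the positions below) encodes a retinal dehydrogenase found in somatic cells of the testis. It was at 1427 TPM in control 1, 193 TPM in control 2, and 413 and 471 TPM in *Zfp541* KO 1 and 2. The controls were 7.41-fold apart and the KO-labelled libraries 1.14-fold apart, between them. The log2 fold change was -0.25 (standard error 1.00, 95% interval -2.97 to 2.47, adjusted p = 0.922 from limma). Without control 1 it was 1.19, and without control 2 it was -1.69, so the direction depended on which control was kept. In these fits, here and below, limma takes the lone control to vary as the KO-labelled libraries do. For single genes only the effect size of such fits is therefore given. *Aldh1a1* has the close copy *Aldh1a7*, and how reads were split between them is uncertain.

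*Aldh1a2* (chr9:71215789-71296243, plus strand) encodes the dehydrogenase that makes retinoic acid in germ cells as well as in embryonic tissue. Its levels were 178 TPM in control 1, 117 TPM in control 2, 120.0 TPM in *Zfp541* KO 1 and 129 TPM in *Zfp541* KO 2. Both libraries labelled *Zfp541* KO were near control 2, and control 1 was highest. Across the groups the log2 fold change was -0.21 (standard error 0.27, 95% interval -0.94 to 0.52, adjusted p = 0.732 from limma), with 0.09 without control 1 and -0.51 without control 2.

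Within the family, *Aldh1a1* made up 88.7% of the summed TPM of *Aldh1a1*, *Aldh1a2* and *Aldh1a3* in control 1 and 61.8% in control 2. In KO-labelled libraries 1 and 2 it made up 77.0% and 78.1%. *Aldh1a2* took 11.1% and 37.5% in the control libraries and 22.4% and 21.4% in the KO-labelled libraries, and *Aldh1a3*, which is not a member, stayed at or below 0.709%. The make-up of the family was thus nearly equal in the KO-labelled libraries and lay between the controls.

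*Crabp1* (chr9:54764748-54773110, plus strand) encodes a cytoplasmic retinoic acid binding protein and is known in the testis from spermatogonia. It was at 42.0 TPM in control 1, 279 TPM in control 2, 72.3 TPM in *Zfp541* KO 1 and 74.2 TPM in *Zfp541* KO 2. Control 2 was highest and control 1 lowest, 6.64-fold apart, in the order opposite to *Aldh1a1*. The log2 fold change was -0.56 (standard error 0.94, 95% interval -3.10 to 1.98, adjusted p = 0.798 from limma). Without control 1 it was -1.92, and without control 2 it was 0.79.

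*Cyp26b1* (chr6:84571414-84593908, minus strand) encodes the enzyme that degrades retinoic acid and is made by somatic cells of the testis. It was at 11.3 TPM in control 1, 1.45 TPM in control 2, 8.29 TPM in *Zfp541* KO 1 and 6.96 TPM in *Zfp541* KO 2. Control 2 stood 7.79-fold below control 1, with both KO-labelled libraries between them. Between the groups the log2 fold change was 0.65 (standard error 0.87, 95% interval -1.71 to 3.01, adjusted p = 0.745 from limma), with 1.81 without control 1 and -0.52 without control 2.

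*Rara* (chr11:98927818-98974942, plus strand) encodes the receptor RARα. It was at 19.5 TPM in control 1, 10.4 TPM in control 2, 19.2 TPM in *Zfp541* KO 1 and 13.7 TPM in *Zfp541* KO 2. Control 1 and *Zfp541* KO 1 were nearly equal and the groups overlapped. The log2 fold change was 0.17 (standard error 0.44, 95% interval -1.01 to 1.35, adjusted p = 0.873 from limma), and it turned to -0.13 after median-ratio scaling, to -0.13 after quantile normalization and to -0.25 without control 2, and was 0.60 without control 1.

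*Rarg* (chr15:102234938-102257517, minus strand) encodes RARγ, the receptor known from spermatogonia that differentiate. It was at 9.75 TPM in control 1, 12.1 TPM in control 2, 20.2 TPM in *Zfp541* KO 1 and 16.5 TPM in *Zfp541* KO 2. It was the 1 member tested whose groups did not overlap, being higher in both KO-labelled libraries, as 38.6% of all genes were, and no member was lower in both, as 12.1% of all genes were. Its log2 fold change was 0.70 (standard error 0.32, 95% interval -0.17 to 1.56, unadjusted p = 0.0903, adjusted p = 0.396 from limma). Without control 1 it was 0.55, and without control 2 it was 0.84. The p-value was the smallest among the members and ranked 3314 among the 14512 genes. After median-ratio scaling and after quantile normalization 0 members were higher in both KO-labelled libraries, so this separation depended on the scaling.

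*Rarb* (chr14:16430839-16819156, minus strand), the receptor gene that carries the repeat printed above, was listed at 0 TPM in control 1 and at 0.15, 0.42 and 0.48 TPM in control 2 and *Zfp541* KO 1 and 2. These values were the lowest among the members in every library, and with a mean of 0.263 TPM the gene was not tested. Both KO-labelled libraries lay above both controls at these low values, as for 38.6% of the genes tested. An exon of *Rarb* overlaps one of *Top2b*, which encodes a DNA topoisomerase, on the opposite strand. *Top2b* was at 69.5, 49.6, 147 and 138 TPM in the same order, and since the strand used in counting is not given in the sources used here, reads of the pair cannot be told apart.

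*Rara* and *Rarg* shared nearly all of the RAR transcripts. *Rara* took 66.7% of the summed TPM in control 1, and 45.9%, 48.3% and 44.6% in control 2 and *Zfp541* KO 1 and 2. *Rarg* took 33.3% in control 1 and 53.5%, 50.6% and 53.8% in the other 3 libraries. Control 1 thus stood apart in the balance of these receptors, while control 2 was close to the KO-labelled libraries.

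*Rxra* (chr2:27676440-27762957, plus strand) encodes a partner of the RAR proteins. It was at 25.7 TPM in control 1, 9.33 TPM in control 2, 27.5 TPM in *Zfp541* KO 1 and 23.1 TPM in *Zfp541* KO 2. Control 2 was the low library, 2.76-fold below control 1, and control 1 lay between the KO-labelled libraries. The log2 fold change was 0.66 (standard error 0.54, 95% interval -0.80 to 2.12, adjusted p = 0.592 from limma). It was 1.34 without control 1 and -0.03 without control 2.

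*Rxrb* (chr17:34031812-34038399, plus strand) encodes another RXR partner. It was at 52.8 TPM in control 1, 88.7 TPM in control 2, 79.2 TPM in *Zfp541* KO 1 and 65.9 TPM in *Zfp541* KO 2, so both KO-labelled libraries lay between the controls. Across the groups the log2 fold change was 0.08 (standard error 0.32, 95% interval -0.79 to 0.94, adjusted p = 0.928 from limma), with -0.25 after median-ratio scaling, -0.09 after quantile normalization, -0.29 without control 1 and 0.44 without control 2. *Rxrb* was the main RXR transcript in every library, with 67.1% and 90.5% of the summed TPM of *Rxra*, *Rxrb* and *Rxrg* in the control libraries and 74.1% and 74.0% in the KO-labelled libraries. *Rxrg*, which is not a member, took at most 0.191%.

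**Figure D2:**
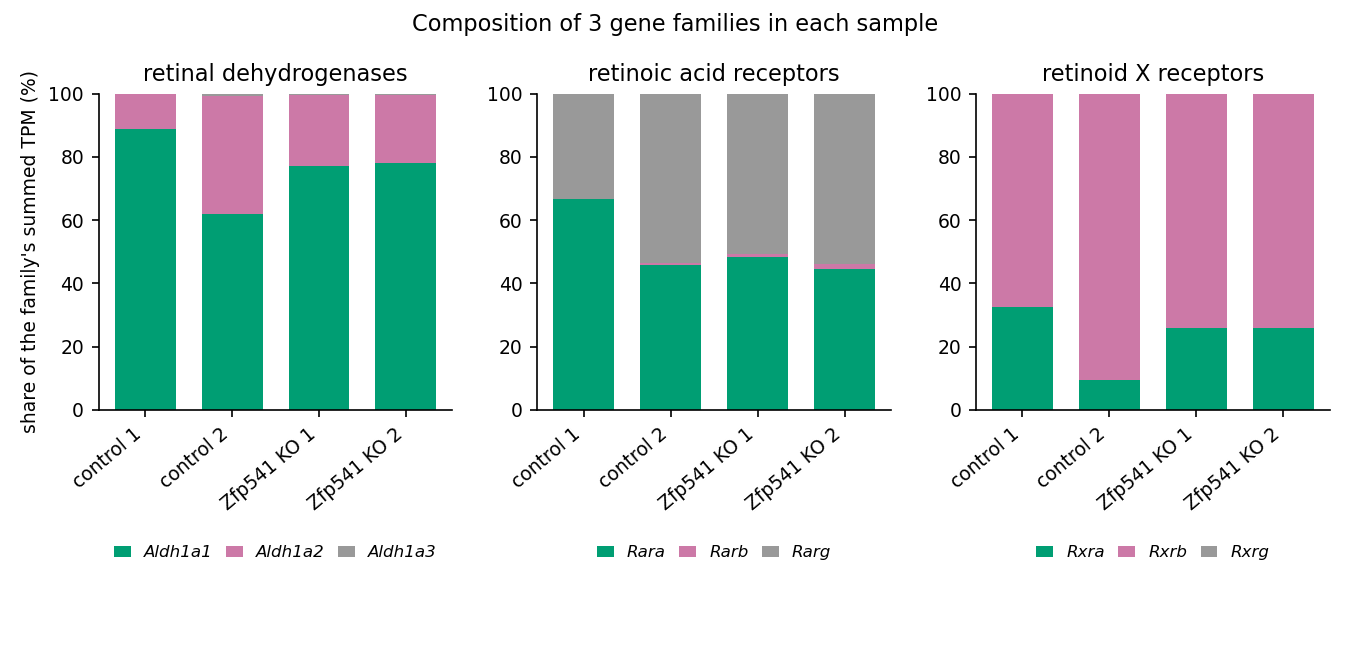
Share of each gene in the summed TPM of its family, in percent on the vertical axis, for the retinal dehydrogenases, the retinoic acid receptors and the retinoid X receptors, with 1 bar per sample. The KO-labelled bars are much alike in each family, whereas the control bars differ, with *Aldh1a1* at 88.7% and 61.8% and *Rxrb* at 67.1% and 90.5%.

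*Stra8* (chr6:34920163-34939344, plus strand) encodes the factor that retinoic acid induces in germ cells at the start of meiosis. It was at 69.02 TPM in control 1, 189 TPM in control 2, 217 TPM in *Zfp541* KO 1 and 103 TPM in *Zfp541* KO 2. The groups overlapped, and the KO-labelled libraries were themselves 2.11-fold apart, the widest gap between them among the members tested, against 2.74-fold for the controls. The log2 fold change was 0.38 (standard error 0.64, 95% interval -1.34 to 2.10, adjusted p = 0.797 from limma). It was -0.34 without control 1, 1.10 without control 2, -0.15 without *Zfp541* KO 1 and 0.06 after median-ratio scaling.

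The profile of *Stra8* over the 4 samples was set beside those of all genes tested by the Euclidean distance between centred log2(TPM + 1) values, a description with no test. The nearest were *Fgf22* (distance 0.187), *Amn* (0.223), *Acta2* (0.271), *Avp* (0.309) and *Xlr3a* (0.309). *Acta2*, a smooth muscle actin, had 2.99, 9.33, 10.6 and 6.01 TPM in controls 1 and 2 and *Zfp541* KO 1 and 2, and *Xlr3a*, an X-linked gene, had 4.32, 12.8, 11.52 and 5.79 TPM. The other 3 genes did not exceed 4.56 TPM in any library. Of the members, *Rxrb* was nearest at 0.819, with 623 genes at that distance or closer, *Rarg* followed at 1.04, and *Aldh1a1* was furthest at 3.25. No member was thus among the 5 genes nearest to *Stra8*.

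**Figure D3:**
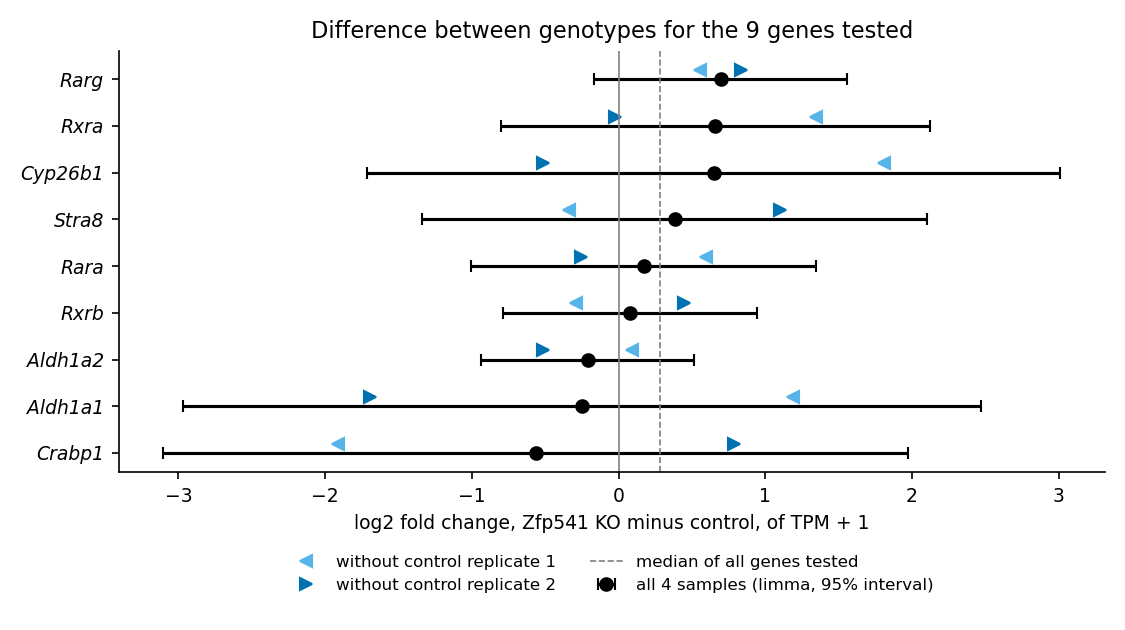
Log2 fold change of TPM + 1, KO-labelled minus control, on the horizontal axis for each of the 9 members tested. Black points and bars are the limma estimate and its 95% interval over all 4 samples, triangles are the estimates without control 1 or without control 2, and the dashed line is the median of all genes tested, 0.28. Every interval crosses 0, and for all but *Rarg* the triangles fall on opposite sides of 0.

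The median log2 fold change of the members tested was 0.17, and that of all genes tested was 0.28. *Stra8*, *Cyp26b1*, *Rarg* and *Rxra* stood above the median of all genes. Between single libraries the members' median was 0.09 for *Zfp541* KO 1 minus control 1, -0.15 for *Zfp541* KO 2 minus control 1, 0.69 for *Zfp541* KO 1 minus control 2 and 0.36 for *Zfp541* KO 2 minus control 2. The median of all genes for these pairs was 0.17, 0.13, 0.45 and 0.43. These pairs share libraries, and the members' median was below 0 in 1 of the 4 pairs, *Zfp541* KO 2 minus control 1. The members' median turned to -0.13 after median-ratio scaling and to -0.09 after quantile normalization. The median of all genes was -0.0044 after median-ratio scaling and 0.09 after quantile normalization, so a single value is to be read against the median of its own scaling.

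Markers of other cell types differed between the libraries along with several members. *Aldh1a1*, which belongs to the Leydig cell markers used here, and the sum of the other 9 Leydig markers had the same order, highest in control 1, then *Zfp541* KO 2, *Zfp541* KO 1 and control 2. Of these 9 genes, 9 were highest in control 1, 8 were lowest in control 2 and 5 had the full order of the sum. The gap between the controls was narrower for *Aldh1a1* (1427 and 193 TPM) than for the sum (3805 and 85.6 TPM). The leading Leydig gene *Insl3*, a peptide hormone, was at 1925 and 4.99 TPM in the control libraries and at 186 and 366 TPM in *Zfp541* KO 1 and 2, and *Lhcgr* was listed at 0 in control 2. *Crabp1* and the sum of 12 spermatogonial markers (*Stra8*, *Crabp1* and *Rarg* left out) were both highest in control 2 and lowest in control 1, the sum being 403 and 910 TPM in the control libraries and 608 and 557 TPM in *Zfp541* KO 1 and 2. Most of the gap between the controls in this sum was in *Uchl1* (127 and 559 TPM in the control libraries), without which the controls summed to 277 and 351 TPM, and 5 of the 12 genes were higher in control 1 than in control 2. The 8 peritubular myoid markers summed to 63.0 and 34.1 TPM in the control libraries and 57.1 and 50.5 TPM in *Zfp541* KO 1 and 2. Only 3 of the 8 were lowest in control 2, where *Cyp26b1* was low, 5 were lowest in control 1, and without *Tpm2* the controls summed to 35.1 and 33.6 TPM.

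The macrophage genes *Lyz2*, a lysozyme, and *C1qb*, a complement subunit, were at 1152 and 487 TPM in control 1, 10.99 and 7.10 TPM in control 2, 912 and 463 TPM in *Zfp541* KO 1, and 646 and 323 TPM in *Zfp541* KO 2. Control 2 was also the lowest library for *Aldh1a1*, *Aldh1a2*, *Cyp26b1*, *Rara* and *Rxra*. It was the highest for *Crabp1* and *Rxrb*, and neither for *Stra8* and *Rarg*. The 20 Sertoli cell markers summed to 2536 and 3544 TPM in the control libraries and 3868 and 3217 TPM in the KO-labelled libraries, with none at 0. Among germ cells, 14 leptotene and zygotene markers summed to 2834 and 3416 TPM in the control libraries and 5607 and 5870 TPM in the KO-labelled libraries, and 15 pachytene markers to 5660 and 2577 TPM against 1481 and 2127 TPM, with no gene of either list at 0 in any library. Without *Ldhc* the pachytene sums were 2001 and 758 TPM against 713 and 896 TPM, so *Zfp541* KO 2 lay above control 2. Of the 15 genes, 9 were lower and 2 higher in both KO-labelled libraries, beside 12.1% and 38.6% of all genes tested. In such bulk samples fewer cells of a type and less RNA per cell cannot be told apart, and the part of these cells in the members' values was not tested.

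**Figure D4:**
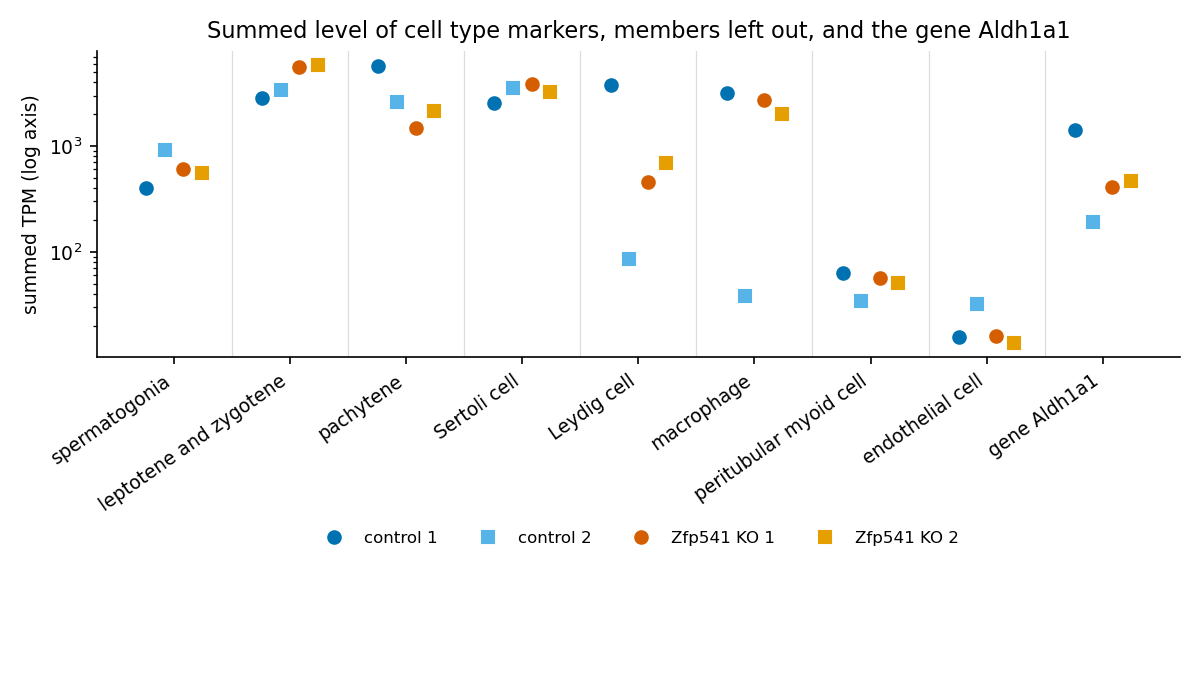
Summed TPM of each list of cell type markers, members left out, in each sample, on a log axis, beside the level of the gene *Aldh1a1*. Leydig cell markers run from 85.6 TPM in control 2 to 3805 TPM in control 1, and *Aldh1a1* has the same order of samples.

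By mean TPM over the 4 samples the members ran from *Aldh1a1* (626 TPM) through *Stra8* (144.5), *Aldh1a2* (136), *Crabp1* (117), *Rxrb* (71.7), *Rxra* (21.4), *Rara* (15.7), *Rarg* (14.6) and *Cyp26b1* (6.997) to *Rarb* (0.263). Neighbours in this order differed by more than the SD of their log2 difference over the libraries for *Rxrb* above *Rxra* (1.77 ± 0.92, SD, n = 4), *Rarg* above *Cyp26b1* (1.14 ± 1.07, SD, n = 4) and *Cyp26b1* above *Rarb* (2.46 ± 1.05, SD, n = 4). *Rxrb* exceeded *Rxra* and *Cyp26b1* exceeded *Rarb* in 4 of 4 libraries, and *Rarg* exceeded *Cyp26b1* in 3 of 4. The other neighbours did not differ beyond that spread. Among these, *Aldh1a1* exceeded *Stra8* in 4 of 4 libraries (1.872 ± 1.875, SD, n = 4), and *Stra8* exceeded *Aldh1a2* in 2 of 4. In each library *Stra8* lay at or above at least 86.4% of all listed genes, and *Rarb* at or above at most 36.8%.

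The rest of the pathway was described by 6 lists, of which 105 genes were in the files and 93 were tested. None passed an FDR of 0.05 by limma, and the adjusted p-values ran from 0.310 to 0.997. At an unadjusted p under 0.05, 27 genes were higher (29.0%) and 1 was lower (1.08%), beside 10.7% and 3.73% of all genes. The counts depended on the scaling, as did the shares of all genes. After median-ratio scaling 12 were higher (12.9%) and 2 lower (2.15%), beside 4.33% and 7.44% of all genes. After quantile normalization 21 were higher (22.6%) and 2 lower (2.15%), beside 7.07% and 6.75% of all genes. The median over the 93 genes was 0.47, and 0.18 and 0.33 under these scalings.

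The 3 lists on making and handling retinoids had medians below that of all genes, 0.28, under the deposited scaling. Their medians lay between -0.40 and -0.31 after median-ratio scaling and between -0.35 and -0.26 after quantile normalization. Among 5 genes tested for vitamin A uptake and storage the median was -0.04, and 1 was higher at an unadjusted p under 0.05, *Lrat*, which stores retinol as esters, with 4.38 and 3.61 TPM in the control libraries and 9.89 and 9.52 TPM in *Zfp541* KO 1 and 2 (log2 fold change 1.10 with a standard error of 0.36, limma adjusted p = 0.324). Among 12 genes that turn retinol to retinal and back the median was -0.09 and 1 was higher, *Rdh10*, the main retinol dehydrogenase of the embryo. It was at 9.97 and 9.11 TPM in the control libraries and at 25.7 and 20.0 TPM in *Zfp541* KO 1 and 2 (1.17 with a standard error of 0.31, limma adjusted p = 0.315). *Lrat* and *Rdh10* were named for their p in this comparison, so their being higher in both KO-labelled libraries is no separate result. Of the 5 and 12 genes tested in these lists, 1 and 3 were higher in both, beside 38.6% of all genes tested. In both KO-labelled libraries 1 and 0 were lower, beside 12.1% of all genes tested. At an unadjusted p under 0.05, 10.7% of all genes were higher and 3.73% lower. The unadjusted p of *Lrat* was no longer under 0.05 after either rescaling, nor that of *Rdh10* after quantile normalization.

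Of the 5 other dehydrogenase, binding and degradation genes tested, none reached an unadjusted p under 0.05, and their median was 0.01. *Fabp5*, a fatty acid binding protein that also binds retinoic acid, was at 24.7 and 59.1 TPM in the control libraries and at 42.4 and 35 TPM in *Zfp541* KO 1 and 2, between the controls. *Aldh1a7* was at 36.5 and 11.3 TPM in the control libraries and at 10.2 and 10.9 TPM in *Zfp541* KO 1 and 2, with control 1 highest as for *Aldh1a1*.

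Among 29 receptor and coregulator genes tested, 7 were higher and none lower at an unadjusted p under 0.05, with a median of 0.64. Their largest differences were in *Ep300* (30.8 and 13.0 TPM in the control libraries, 57.8 and 57.7 TPM in *Zfp541* KO 1 and 2) and *Crebbp* (19.2 and 8.64 TPM, 31.9 and 35.1 TPM), which encode histone acetyltransferases. *Ncoa1*, a coactivator of nuclear receptors, had 12.9 and 7.59 TPM in the control libraries and 24.2 and 24.4 TPM in *Zfp541* KO 1 and 2, and *Carm1*, an arginine methyltransferase, had 52.6 and 31.4 TPM and 92.2 and 97.4 TPM. The log2 fold changes of these 4 genes ran from 1.20 for *Carm1* to 1.47 for *Ep300*, and the lowest adjusted p was 0.311 for *Carm1* from limma. After median-ratio scaling 5 genes of the list were higher and 1 lower with a median of 0.34. After quantile normalization 6 were higher and none lower with a median of 0.33. Of all genes, 10.7% were higher and 3.73% lower as deposited, 4.33% and 7.44% after median-ratio scaling, and 7.07% and 6.75% after quantile normalization. The 4 genes were named for their p in this comparison, so their being higher in both KO-labelled libraries is no separate result. Of the 29 genes, 17 were higher and 2 lower in both, beside 38.6% and 12.1% of all genes tested.

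Of 17 tested partners of STRA8 and genes of meiotic entry, 7 were higher and 1 was lower at an unadjusted p under 0.05, with a median of 0.45. After median-ratio scaling 4 were higher and 1 lower with a median of 0.14, and after quantile normalization 7 and 1 with a median of 0.17. Of all genes, 10.7% were higher and 3.73% lower as deposited, 4.33% and 7.44% after median-ratio scaling, and 7.07% and 6.75% after quantile normalization. *Sohlh2*, a spermatogonial transcription factor, had 49.5 and 99.7 TPM in the control libraries and 237 and 217 TPM in *Zfp541* KO 1 and 2 (log2 fold change 1.68 with a standard error of 0.38, limma adjusted p = 0.310). *Mga*, a repressor of meiotic genes, had 25.9 and 14.7 TPM and 56.6 and 52.7 TPM, and *Ythdc2*, an RNA helicase needed for meiotic entry, had 46.0 and 36.1 TPM and 80.5 and 81.9 TPM. The lower gene was *Dmrtb1*, a regulator of the switch from mitosis to meiosis, with 362 and 154 TPM and 93.4 and 94.7 TPM (-1.32 with a standard error of 0.45, limma adjusted p = 0.331). These genes were named for their p in this comparison, so their lying outside the range of the controls is no separate result. Of the 17 genes, 10 were higher in both KO-labelled libraries, beside 38.6% of all genes tested. In both, 1 was lower, beside 12.1% of all genes tested. *Meiosin* was not analysed here.

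All 25 genes switched on at meiotic entry were tested, 11 were higher and none lower at an unadjusted p under 0.05, and their median was 0.82. *Mcmdc2*, a recombination factor, had 36.6 and 29.2 TPM in the control libraries and 99.3 and 134 TPM in *Zfp541* KO 1 and 2 (log2 fold change 1.79 with a standard error of 0.26, limma adjusted p = 0.310). *Smc1b*, a meiotic cohesin subunit, had 232 and 165 TPM and 455 and 459 TPM. *Meiob*, which binds DNA at recombination sites, had 82.7 and 156 TPM and 242 and 266 TPM, and *Prdm9*, which sets those sites, had 24.5 and 36.7 TPM and 76.3 and 56.4 TPM. After median-ratio scaling 2 genes of the list were higher with a median of 0.50, and after quantile normalization 8 were higher with a median of 0.73. Of all genes, 10.7% were higher and 3.73% lower as deposited, 4.33% and 7.44% after median-ratio scaling, and 7.07% and 6.75% after quantile normalization. The genes shown were named for their p in this comparison, so their being higher in both KO-labelled libraries is no separate result. Of the 25 genes, 17 were higher and none lower in both, beside 38.6% and 12.1% of all genes tested. The leptotene and zygotene markers given above share genes with this list and were also higher in sum in both KO-labelled libraries, and their part was not tested.

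**Figure D5:**
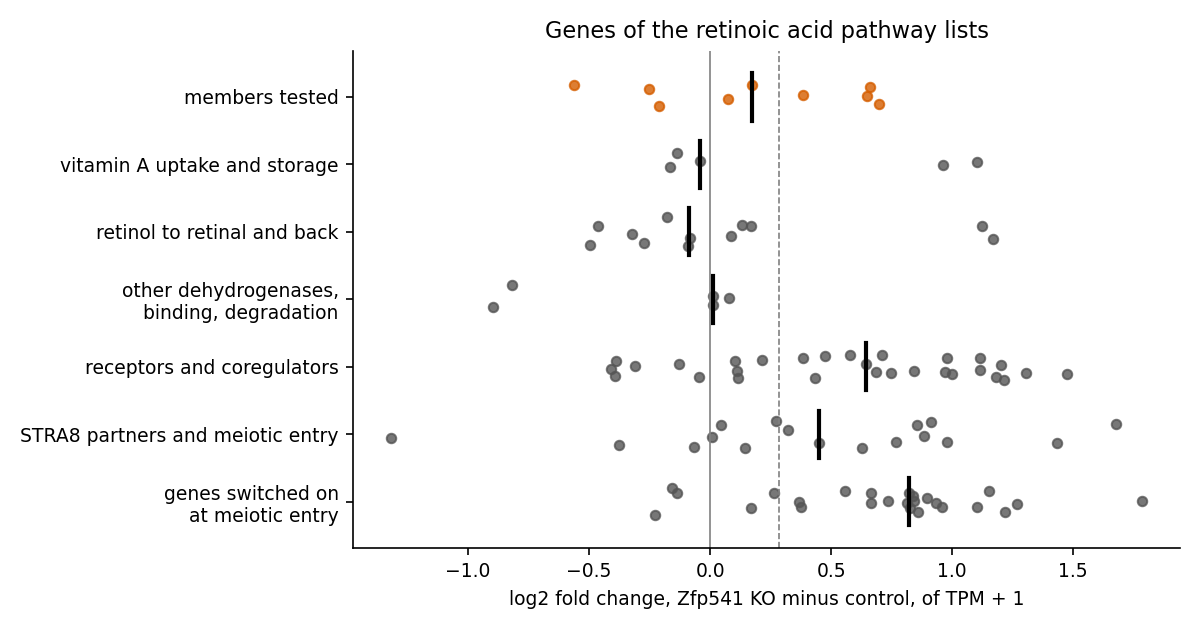
Log2 fold change of TPM + 1, KO-labelled minus control, on the horizontal axis for each gene tested of the members and the 6 pathway lists. Each point is 1 gene, the short vertical bar is the median of a list, and the dashed line is the median of all genes tested, 0.28. The medians run from -0.09 for retinol to retinal and back to 0.82 for genes switched on at meiotic entry, with 0.17 for the members.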

How the data were processed

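GFP-positive testis cells of 2 control and 2 *Zfp541* KO-labelled samples were used. The authors trimmed single-end reads with Trim Galore 0.5.0 (cutadapt 1.16), aligned them to UCSC mm10 with STAR 2.6.0a and ran RSEM 1.3.1, and deposited TPM values per gene. TPM keeps no depth, so the depth and counting error of each library are unknown. A date stands where the gene symbol should be in 27 rows, which were left unnamed.

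Groups came from the sample labels. Genes averaging 1 TPM or more were fitted in R 4.3.3 with limma 3.58.1 on log2(TPM + 1), with a mean-variance trend and an FDR of 0.05. On simulated data the fit was required only to return known changes on average, which does not test the calls at an FDR of 0.05. Members and lists were chosen with earlier results of these data known. Of each pathway list, up to 4 genes with the largest change at an unadjusted p under 0.05 were named, or else the 2 highest in TPM, and the 2 highest of each somatic marker list were named too (in the report or among the other observations). Positions are from GENCODE M21 and promoters from RefSeq (GRCm38.p6). *Meioc* was matched as *Gm1564* through RefSeq synonyms. Alternatives covered the pseudocount, filter, scaling, trend, replicate block, FDR and each sample left out.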

Additional observations from a re-analysis of the deposited data

How the results depend on the processing

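With no sample left out, no member and no pathway gene passed an FDR of 0.05 by limma under any pseudocount, filter, scaling, trend, block or FDR tried (0.01 and 0.1 included). Leaving out 1 sample gave 0 to 4 members and 0 to 52 pathway genes past it, 4 and 52 without control 1 and 3 and 50 without control 2. Only the effect sizes of such fits are therefore given. Members higher in both libraries labelled *Zfp541* KO numbered 2 with no filter and 0 after either rescaling, and 1 to 6 with a sample left out (6 without control 1, 4 without control 2, 3 without *Zfp541* KO 2). Members lower in both numbered 1 after either rescaling. The shares of all genes under these settings were not computed, so these counts have nothing to be read against. With a sample left out, a group of 1 value overlaps less easily, so such counts are not given. The members' median was -0.13 after median-ratio scaling and -0.0901 after quantile normalization, and ran from -0.0616 to 0.55 with a sample left out.

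The pathway median was 0.57 with a pseudocount of 0.1, 0.38 with 5, 0.38 with no filter, 0.63 with a filter at 5 TPM, 0.18 after median-ratio scaling, 0.33 after quantile normalization, and 0.42 to 0.60 with a sample left out. The direction turned for *Rara* (-0.13 under both rescalings) and *Rxrb* (-0.25 median-ratio, -0.0901 quantile). With a sample left out, the log2 fold change ran from -1.69 to 1.19 for *Aldh1a1*, -0.51 to 0.0913 for *Aldh1a2*, -1.92 to 0.79 for *Crabp1*, -0.52 to 1.81 for *Cyp26b1*, -0.25 to 0.60 for *Rara*, 0.55 to 0.84 for *Rarg*, -0.0272 to 1.34 for *Rxra*, -0.29 to 0.44 for *Rxrb* and -0.34 to 1.10 for *Stra8*. The cause of these moves was not tested.

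With replicate number as a block, 0 members and 0 genes passed, the lowest adjusted p of a member was 0.709 from limma, and no call changed. Samples of the same number did not deviate together (correlation -0.156 across 14512 genes). Crossing the numbers, an alternative added after the data were seen, called 7 genes higher and 80 lower and 0 members.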

Other observations

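The remaining marker lists are given with values in the order control 1, control 2, *Zfp541* KO 1 and *Zfp541* KO 2. The 12 round spermatid markers summed to 144, 55.9, 51.6 and 55.8 TPM, and without *Acr* to 25.6, 19.4, 33.6 and 33.8 TPM. Among Sertoli cell genes, *Clu*, a secreted chaperone, was at 688, 501, 843 and 576 TPM and *Aard* at 377, 951, 762 and 664 TPM. The peritubular gene *Mylk*, a myosin light chain kinase, was at 22.8, 14.6, 27.4 and 25.5 TPM, and the muscle gene *Tpm2*, a tropomyosin, at 27.9, 0.57, 3.99 and 5.87 TPM, as far apart between the controls as *Aldh1a1* or more.

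The 8 endothelial markers summed to 15.5, 31.9, 16.1 and 13.8 TPM. *Egfl7* was at 4.64, 29.96, 10.3 and 8.62 TPM and *Cdh5*, an endothelial cadherin, at 7.94, 0.51, 3.14 and 3.02 TPM, with the controls in opposite order. The 5 red blood cell genes summed to 71.5, 20.3, 29.7 and 280.2 TPM. The near-identical α-globin copies, whose split of reads is uncertain, were at 62.1, 17.1, 25.8 and 0 TPM for *Hba-a1* and at 0, 0, 0 and 244 TPM for *Hba-a2*.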
